A study of Epinephelus fuscoguttatus x Epinephelus lanceolatus with 9 samples.

Results

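The genes described here encode initiation and elongation factors of cytosolic translation and proteins that act on them, kinases among them. A few are related by symbol alone. The set was every gene of the deposited count table whose symbol begins with eif and a digit, eef1, eef2, mknk1 or mknk2. The rule reads the symbol alone, but it was chosen with earlier results of these data known. This rule found 60 of the 22344 genes, and all 60 had enough reads to be tested among 17731 genes. By symbol they fell into 15 roles, of which eIF3 was the largest with 12 genes. The eIF4E kinases were represented by mknk1 and mknk2b, and the rule found no gene with the symbol mknk2a, eif4a1 or eef2. Of all genes, 8101 carried only a LOC number, so a further translation gene without a symbol would not be among the 60.

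The study sequenced 9 RNA libraries from intestine of the pearl gentian grouper, the hybrid Epinephelus fuscoguttatus x Epinephelus lanceolatus that is raised in aquaculture. The groups are labelled FM, SBM and Drug, with 3 libraries each, and the series title names Lithospermum erythrorhizon, a medicinal herb. The labels give neither the base diet, dose nor duration for any group, nor the age of the fish or the gut segment, and FM and SBM, which in fish nutrition usually stand for fish meal and soybean meal, are not spelled out. It is not stated that each library is from its own fish, so the p-values reflect the variation among libraries, possibly a technical one.

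In eukaryotes, translation begins when eIF2 brings the initiator tRNA to the small ribosomal subunit, where eIF3 acts as a large scaffold. The mRNA is recruited through its cap by eIF4E, which binds the scaffold eIF4G and, with it, the helicase eIF4A. The eIF4E-binding proteins compete with eIF4G for eIF4E, and the Mnk kinases, which dock on eIF4G, phosphorylate eIF4E. Stress-activated kinases phosphorylate eIF2 and so reduce its recycling by eIF2B, and eEF2 kinase slows elongation by phosphorylating eEF2. The intestinal epithelium renews continually and makes large amounts of protein. All measurements below are of mRNA and say nothing of phosphorylation or of translation itself.

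Library depth was 32.9 to 35.5 M counts per library. The tissue label was checked against a list of 8 epithelial genes, of which 5 were in the table, epcam, cdx1b, cldn15a, krt18a.1 and krt8. These 5 were present in every library, with a summed level of 1733 to 3454 CPM (counts per M counts, adjusted between libraries with TMM factors). The keratin genes krt8 and krt18a.1 had the highest values among them in every library. FM replicate 3 stood apart with 23480 CPM of hepatocyte transcripts against 53.8 to 756 CPM in the other libraries. SBM replicate 1 was the highest of the 9 libraries for 30 of the 60 translation genes, or 50%, whereas it was the highest for 17.8% of all tested genes. In whole tissue, fewer cells of a type and less RNA per cell cannot be told apart.

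The translation genes spanned a wide range of levels. On the length-scaled FPKM scale (fragments scaled by gene length and library total, deposited by the authors), the mean over the 9 libraries was highest for eef1b2, the nucleotide exchange factor of eEF1, at 1255 FPKM. It was followed by eef1g, another eEF1 subunit, at 1023 FPKM, and by eif5a, which helps ribosomes through difficult peptide bonds, at 893 FPKM. Of the 15 genes with a mean level of at least 100 FPKM, 10 encoded eIF3 subunits. The eIF2B subunits lay close together, from 11.1 to 15.2 FPKM, and the eIF2 kinases were low, from 3.32 FPKM for eif2ak1 to 6.62 FPKM for eif2ak2. The lowest levels were those of eef2kmt, a methyltransferase of eEF2, at 1.07 FPKM and of eef1a1a at 1.02 FPKM. Levels therefore differed little among the eIF2B genes and widely among the eEF1 genes with a symbol. Of eEF1A only eef1a1a was among the 60, and a further copy under a LOC number would not be counted. The median coefficient of variation of the 60 between libraries of a group was 10.3% in FM, 15.1% in SBM and 10.4% in Drug, against 18.6%, 23.8% and 16.2% over all tested genes.

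**Figure D1:**
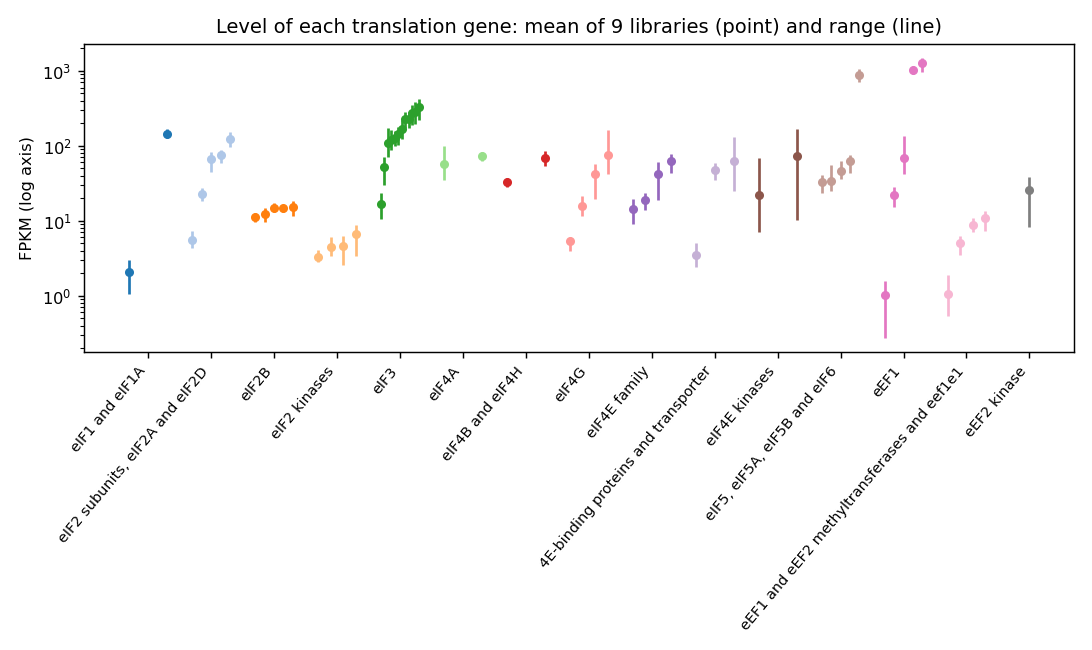
Mean FPKM over the 9 libraries (log axis) of each translation gene, one point per gene and grouped by role, with lines from the lowest to the highest library. The eEF1 genes range from 1.02 to 1255 FPKM, the eIF2B genes only from 11.1 to 15.2 FPKM, and the longest lines belong to genes such as mknk2b, from 10.2 to 166 FPKM.

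The first question was how much of the mRNA pool these genes made up. Their share of all counts was 1.202%, 1.26% and 1.14% in FM, 1.27%, 1.23% and 1.16% in SBM, and 0.912%, 1.04% and 0.947% in Drug, in order of replicate. All 3 Drug libraries lay below all 6 others, while FM and SBM overlapped. The mean share was 1.1995% ± 0.0611 in FM, 1.22% ± 0.0566 in SBM and 0.965% ± 0.0637 in Drug (SD, n = 3). An exact two-sided permutation test gave p = 0.7 for SBM vs FM and p = 0.1 for Drug vs SBM and for Drug vs FM, and 0.1 is the smallest value that 3 against 3 libraries allow. Summed TMM-scaled CPM in Drug was 73.3% of that in SBM and 84.4% of that in FM. On that scale FM and SBM did not overlap, unlike in the shares of counts. The sum was 11154 to 11579 CPM in FM and 12166 to 14510 CPM in SBM, so their order depended on the scaling.

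Gene by gene, the translation genes with lower values in Drug than in SBM were mostly the abundant ones. In SBM vs FM, 8 genes lay wholly higher in SBM (13.3%; 11.1% of all) and 3 wholly lower (5%; 11.7% of all), and the lower count became 15 without SBM replicate 1 (25%; 19.9% of all) and 6 without FM replicate 2 (10%; 14.8% of all). In 25 of the 60, or 41.7%, every Drug library was below every SBM library, against 10.7% of all tested genes. These 25 had a median level of 121 FPKM and the other 35 of 15.2 FPKM. In 5, or 8.33%, every Drug library was above every SBM library, against 9.2% of all. Against FM, Drug lay wholly lower in 15 genes (25%; 16.2% of all) and wholly higher in 9 (15%; 16.6% of all). Only the lower count stood above its background, and it came mostly from eIF3, which had 10 of those 15 genes. The others were eef2k, eif2s1b, eif4a2, eif4g2b and mknk2b. Both comparisons use the same Drug libraries and are not independent. Drug lay below both other groups in the same 15 genes (25%; 4.25% of all) and above both in 2, eif2d and eif4e2 (3.33%; 3.63% of all). Genes of at least 100 FPKM, a bound chosen after the values were seen, numbered 721 in the table, and 32.3% of them lay wholly lower in Drug than in SBM; of the 15 translation genes among them 14 did, the exception being eif1axb. In the same 15, 11 lay wholly lower in Drug than in FM, against 18.2% of the 721. With any 1 Drug or SBM library left out, 25 to 27 of the 60 (41.7% to 45%) lay wholly lower in Drug than in SBM. The share of all genes rose to between 13.7% and 21.3%. Leaving out a library can only keep or raise such counts, here and in SBM vs FM, so they do not test dependence on 1 library. The number lying wholly higher was 20 without SBM replicate 1 (33.3%; 20.4% of all) and 9 without Drug replicate 2 (15%; 15% of all). With total counts in place of TMM factors, which shifts the median of all genes in Drug vs SBM from -0.01 to 0.10 on the log2 scale, 18 of the 60 lay wholly lower (6.12% of all) and 11 wholly higher (15.5% of all). The same scaling gave 5 higher (8.33%; 14.1% of all) and 18 lower (30%; 18.9% of all) in Drug vs FM. It gave 4 higher (6.67%; 5.36% of all) and 9 lower (15%; 19.3% of all) in SBM vs FM.

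Few of these differences passed the test across all genes. At an edgeR adjusted p under 0.05, none of the 60 passed in SBM vs FM, where 0.446% of tested genes were called higher and 0.147% lower. At an unadjusted edgeR p under 0.05, 5 were higher (8.33%; 10.9% of all) and 3 lower (5%; 9.67% of all). DESeq2 called mknk2b, eif4ebp2, eif5a and eif2a higher and eif2ak4 lower, 4 and 1, where it called 5.78% and 3.74% of all genes to which it gave an adjusted p. In Drug vs SBM 1 translation gene was called lower, mknk2b, and none higher, where 0.0395% and 0% of all genes were called. DESeq2 called 13 lower and none higher, against 2.66% and 1.32% of all, and the 13 were mknk2b, eef2k, eif5a, eif4ebp3l, eif2s1b and 8 eIF3 genes. At an unadjusted p under 0.05 edgeR had 21 lower and 6 higher, against 7.97% and 5.15% of all. In Drug vs FM 1 was called lower, eef2k, and none higher, against 1.52% and 2.86% of all genes. DESeq2 called 10 lower there and none higher, against 5.8% and 8.21% of all, and the 10 were eef2k, mknk2b, eif4a2, eif2s1b and 6 eIF3 genes. At an unadjusted p under 0.05 edgeR had 14 lower and 3 higher, against 11.8% and 12% of all. The median log2 fold change of the 60 was 0.07 in SBM vs FM, -0.16 in Drug vs SBM and -0.04 in Drug vs FM, and that of all tested genes 0.01, -0.01 and -0.04. The sign of each median turned under some setting: it became 0.0498 in Drug vs SBM without SBM replicate 1, 0.0443 in Drug vs FM without FM replicate 1 and -0.114 in SBM vs FM with total counts. Drug was also compared with the mean of FM and SBM, a contrast chosen after the values were seen. There eef2k and mknk2b were called lower and none higher, against 0.282% and 0.468% of all genes, and at an unadjusted p under 0.05 there were 20 lower and 2 higher, against 9.05% and 9.68% of all. DESeq2 was not run on that contrast.

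**Figure D2:**
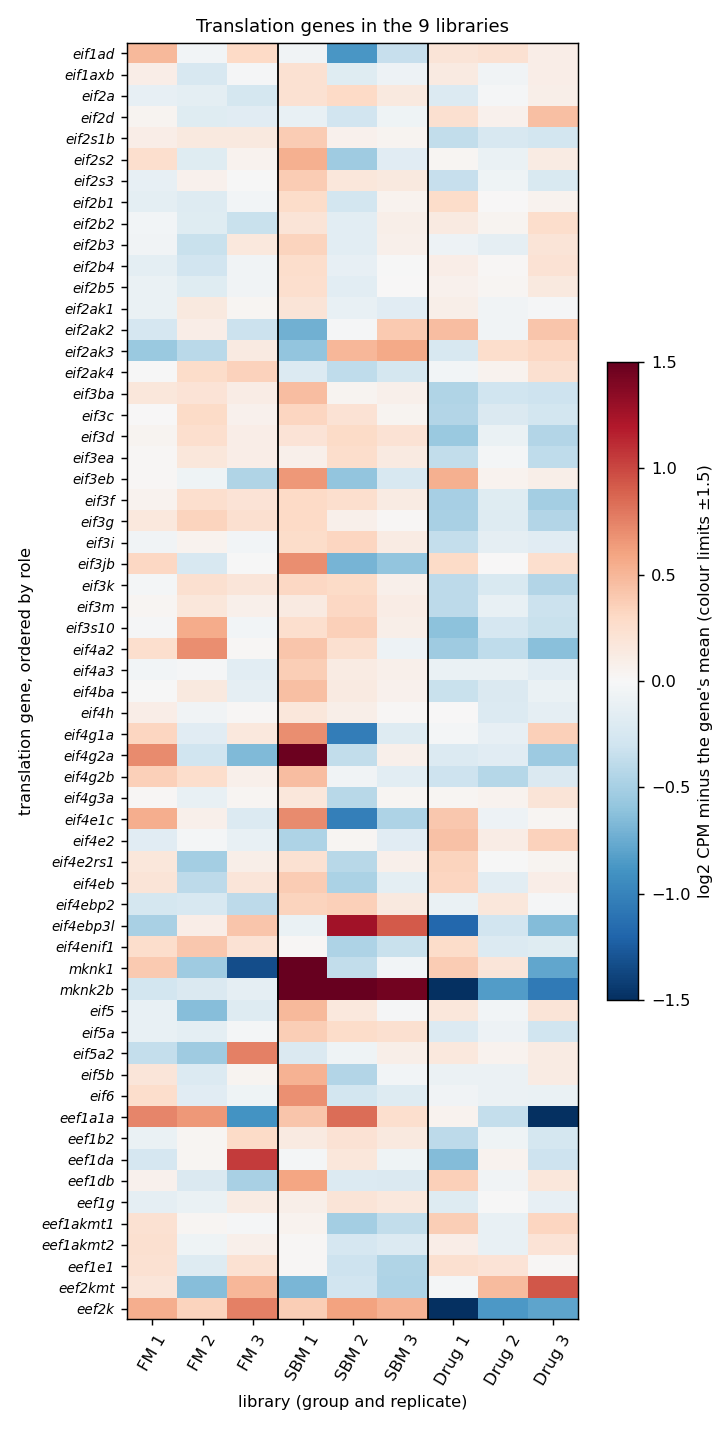
Log2 CPM of the 60 translation genes in each of the 9 libraries, minus the mean of the gene, with colours cut at 1.5 in either direction and genes ordered by role. The eIF3 rows other than eif3eb and eif3jb are lowest in the 3 Drug libraries, mknk2b is dark red in the 3 SBM libraries, and SBM replicate 1 is the highest library in 30 rows.

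The eIF4E kinase mknk2b had the largest log2 fold change of the 60 genes in SBM vs FM and in Drug vs SBM. It was at 198, 207 and 218 CPM in FM replicates 1, 2 and 3, at 881, 711 and 658 CPM in SBM and at 47.1, 134 and 115 CPM in Drug. Its 3 groups did not overlap, with SBM highest and Drug lowest. In Drug vs SBM it fell 7.59-fold (log2 fold change -2.92, SE 0.35, adjusted p = 0.0426). That call was lost on leaving out either SBM replicate 2 or 3, either Drug replicate 2 or 3, or any FM replicate, with adjusted p from 0.0621 to 0.277, while the log2 fold change stayed between -3.20 and -2.59 under 21 alternative settings, 8 of which kept the call. In SBM vs FM it was 3.61-fold higher and just missed the threshold (log2 fold change 1.85, SE 0.34, adjusted p = 0.0513), and it passed without Drug replicate 1 (adjusted p = 0.0130) and in 3 other of the 21 settings. In Drug vs FM its level was 2.104-fold lower and did not pass by edgeR (log2 fold change -1.07, SE 0.33, adjusted p = 0.0942), while DESeq2 called it (adjusted p = 0.0221). Against the mean of FM and SBM its log2 fold change was -2.00 (adjusted p = 0.0326).

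The paralogous kinase mknk1 was at 81.7, 42.9 and 24.9 CPM in FM, 267, 48.4 and 60.8 CPM in SBM and 80.9, 70.5 and 36.3 CPM in Drug. All 3 groups overlapped, and the high SBM mean came from replicate 1. Its log2 fold change in Drug vs SBM was -1.001 (SE 0.71, adjusted p = 0.586) and became 0.21 without SBM replicate 1. The log2 ratio of mknk2b to mknk1 within a library was 1.27, 2.26 and 3.11 in FM, 1.72, 3.86 and 3.43 in SBM, and -0.77, 0.92 and 1.65 in Drug. Drug replicate 1 was the only library with a negative value. All 3 Drug ratios lay below all 3 SBM ratios, while FM overlapped both. Among libraries of the same number, SBM was above FM and Drug below FM for all 3 numbers. Whether the numbers pair the libraries is not stated. The exact two-sided permutation test over unpaired libraries gave p = 0.1 for Drug vs SBM, p = 0.2 for Drug vs FM and p = 0.4 for SBM vs FM, and with 3 against 3 libraries it cannot go below 0.1, so it could not pass the threshold in any comparison.

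The kinase of the elongation factor eEF2, eef2k, was lower in Drug than in both other groups. It was at 98.9, 85.2 and 114 CPM in FM, 87.5, 103 and 97.1 CPM in SBM and 23.99, 37.3 and 38.9 CPM in Drug. FM and SBM overlapped, and the highest Drug library, at 38.9 CPM, was below the lowest of the others, FM replicate 2 at 85.2 CPM. In Drug vs FM it fell 2.97-fold (log2 fold change -1.57, SE 0.21, adjusted p = 0.0131), a call kept in 20 of 21 alternative settings and lost without FM replicate 2 (adjusted p = 0.0522). In Drug vs SBM the log2 fold change was of similar size but missed the edgeR threshold (log2 fold change -1.52, SE 0.21, adjusted p = 0.0776), and it passed without SBM replicate 1 (adjusted p = 0.0470) and by DESeq2 (adjusted p = 4.64e-08). Against the mean of both groups it was -1.55 (adjusted p = 0.0165). In SBM vs FM it was -0.05 (SE 0.21, adjusted p = 0.912), and its sign turned when FM replicate 3 or SBM replicate 1 was left out.

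**Figure D3:**
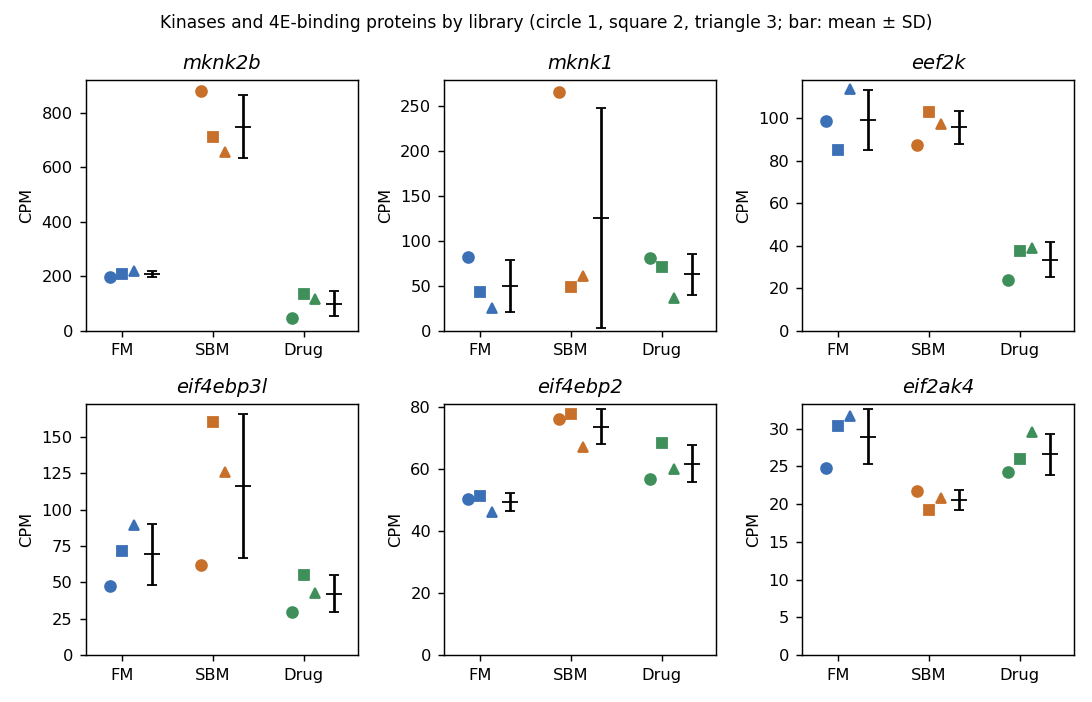
CPM by library of the eIF4E kinases mknk2b and mknk1, the eEF2 kinase eef2k, the eIF4E-binding proteins eif4ebp3l and eif4ebp2 and the eIF2 kinase eif2ak4, with one symbol per replicate number and bars for the mean ± SD of 3 libraries. For mknk2b the SBM libraries, 658 to 881 CPM, stand above FM and Drug, for eef2k the Drug libraries, 24.0 to 38.9 CPM, stand below the rest, and for mknk1 SBM replicate 1, at 267 CPM, stands alone.

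The genes of 2 eIF4E-binding proteins, which hold eIF4E back, had their highest mean in SBM. The eIF4E-binding protein gene eif4ebp3l was at 47.5, 71.2 and 89.2 CPM in FM, 62.2, 160.1 and 126 CPM in SBM and 29.3, 54.7 and 42.4 CPM in Drug. Every Drug library was below every SBM library, while FM overlapped both, and SBM replicate 1 was the low SBM library. Drug vs SBM did not pass by edgeR (log2 fold change -1.46, SE 0.38, adjusted p = 0.199) and passed by DESeq2 (adjusted p = 0.0116). The gene eif4ebp2 was at 50.5, 51.4 and 46.1 CPM in FM, 76.2, 77.6 and 67.2 CPM in SBM and 56.8, 68.5 and 60.01 CPM in Drug. SBM and Drug both lay wholly above FM, by log2 fold changes of 0.58 (SE 0.14, adjusted p = 0.0874) and 0.32 (SE 0.14, adjusted p = 0.195), neither past the edgeR threshold, while DESeq2 called the first (adjusted p = 0.00186). The eIF4E transporter gene eif4enif1 was at 14.99, 16.6 and 14.5 CPM in FM, 12.7, 9.10 and 9.95 CPM in SBM and 15.1, 10.8 and 10.98 CPM in Drug, with SBM wholly below FM (log2 fold change -0.54, SE 0.19, adjusted p = 0.174).

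None of the 4 genes of cap-binding proteins passed in any comparison, by edgeR or by DESeq2, and at an unadjusted edgeR p under 0.05 only eif4e2 differed, in both Drug comparisons. The canonical eif4eb was at 92.9, 61.6 and 91.96 CPM in FM, 106, 58.3 and 73.1 CPM in SBM and 101, 72.96 and 86.9 CPM in Drug, with overlap throughout. Its log2 fold changes lay between -0.05 and 0.14. The paralog eif4e1c ranged from 34.0 to 113 CPM within SBM alone, and eif4e2rs1 from 12.8 to 23.0 CPM over the 9 libraries. The gene eif4e2, whose mammalian product binds the cap without recruiting eIF4G, was at 18.6, 20.4 and 19.3 CPM in FM, 15.2, 21.3 and 18.5 CPM in SBM and 28.3, 22.5 and 26.5 CPM in Drug. It lay wholly higher in Drug than in both groups, and neither comparison passed (adjusted p = 0.269 against SBM and 0.17 against FM).

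Most eIF3 subunit genes had their lowest values in Drug. Of the 12 genes, 10 lay wholly lower in Drug than in SBM (10.7% of all) and wholly lower than in FM (16.2% of all). These were eif3ba, eif3c, eif3d, eif3ea, eif3f, eif3g, eif3i, eif3k, eif3m and eif3s10, the last an older symbol of the largest subunit. With any 1 library of the groups compared left out, both counts were 10, against 13.7% to 21.3% and 19.4% to 23.8% of all. Leaving out a library can only keep or raise such a count, so this does not test dependence on 1 library. All 10 had a mean of at least 100 FPKM. Of the 721 genes at that level, 32.3% lay wholly lower in Drug than in SBM and 18.2% wholly lower than in FM. The summed level of the 12 was 3749, 4337 and 3845 CPM in FM, 4395, 4215 and 3853 CPM in SBM and 2672, 3221 and 2858 CPM in Drug. The highest Drug library was thus below the lowest of the other 6, and the Drug mean was 73.3% of the FM mean and 70.2% of the SBM mean. The median log2 fold change was -0.51 in Drug vs SBM and -0.46 in Drug vs FM.

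None of the 12 passed edgeR's adjusted threshold in either comparison, with smallest adjusted p of 0.179 and 0.0506, whereas DESeq2 called 8 lower in Drug vs SBM (2.66% of all) and 6 in Drug vs FM (5.8% of all). At an unadjusted p under 0.05 edgeR had 10 lower in Drug vs SBM (7.97% of all) and 9 in Drug vs FM (11.8% of all). The most abundant, eif3d, whose mammalian product also binds the cap of some mRNAs, was at 622, 718 and 646 CPM in FM, 699, 735 and 699.6 CPM in SBM and 412, 563 and 447 CPM in Drug. It was 1.501-fold lower in Drug than in SBM (log2 fold change -0.59, SE 0.15, adjusted p = 0.19). For eif3g, a subunit that helps scanning, the values were 333, 377 and 354 CPM in FM, 369, 316 and 304 CPM in SBM and 213, 261 and 221 CPM in Drug. Its Drug vs FM difference was nearest to the threshold (log2 fold change -0.61, SE 0.15, adjusted p = 0.0506) and passed it in 9 of 21 alternative settings. The subunit genes eif3f and eif3ba had log2 fold changes of -0.56 and -0.51 in Drug vs FM (adjusted p = 0.062 and 0.0821). Without SBM replicate 1, eif3g, eif3f and eif3ba all passed in Drug vs FM (edgeR adjusted p = 0.0294, 0.0479 and 0.0329).

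The exceptions were eif3eb and eif3jb. The first is by its symbol a copy of eif3ea and was at 26.6, 25.2 and 19.2 CPM in FM, 41.2, 17.4 and 22.3 CPM in SBM and 38.03, 27.3 and 27.8 CPM in Drug. It was wholly higher in Drug than in FM, and its log2 fold change of 0.20 in Drug vs SBM turned to -0.02 without SBM replicate 2. Its copy eif3ea was at 349, 385 and 369 CPM in FM, 363, 413 and 378 CPM in SBM and 267, 337 and 265 CPM in Drug. In FPKM, which allows levels of different genes to be compared, eif3ea had a mean of 229 and eif3eb of 16.6. The gene eif3jb, which encodes a loosely bound subunit, was at 121, 82.9 and 97.3 CPM in FM, 158, 60.4 and 65.1 CPM in SBM and 120.1, 98.2 and 116 CPM in Drug, with SBM replicate 1 highest and SBM replicates 2 and 3 lowest of all 9. Where such copies are nearly identical, reads may be divided between them, and the value of either gene alone is uncertain. In SBM vs FM the 12 subunits had a median log2 fold change of 0.07, with 10 positive and 2 negative. That direction depended on the scaling, since 11 of 12 were negative with total counts, where the median of all genes was -0.18. The signs in Drug did not: 10 of 12 were negative in both Drug comparisons with TMM, with RLE and with total counts. With total counts, however, 9 of the 12 lay wholly lower in Drug than in SBM (6.12% of all), with a median log2 fold change of -0.40.

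**Figure D4:**
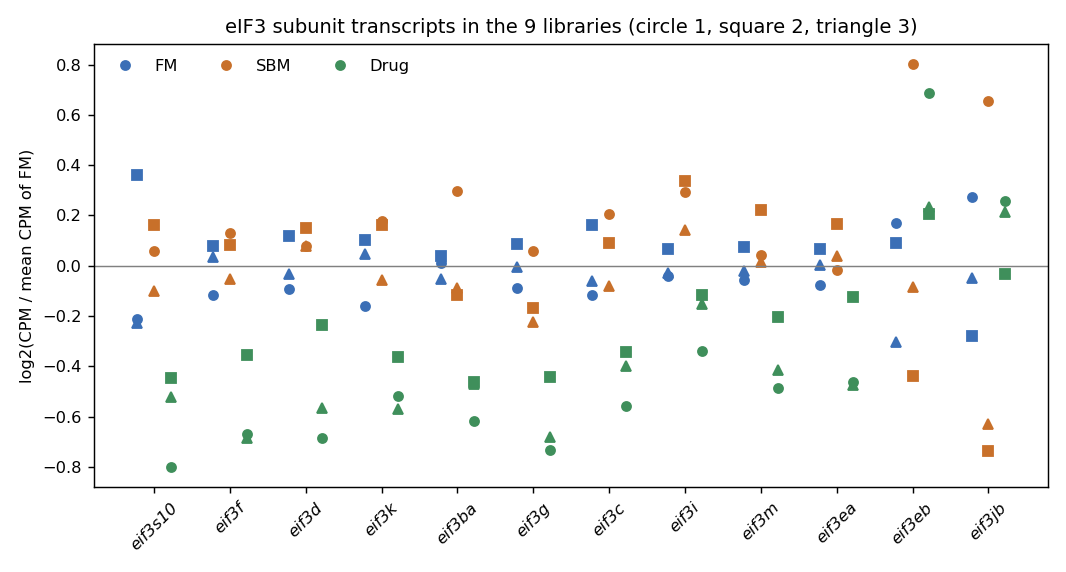
Log2 ratio of CPM to the FM mean for the 12 eIF3 genes in the 9 libraries, coloured by group, with symbols for replicate number and genes ordered by their Drug vs SBM difference. For 10 genes the 3 Drug points lie below all FM and SBM points, and for eif3eb and eif3jb they do not.

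The helicase and scaffold genes of cap binding showed the same direction in part. The helicase gene eif4a2 was at 88.8, 121 and 75.6 CPM in FM, 99.97, 88.5 and 70.8 CPM in SBM and 51.96, 57.6 and 48.5 CPM in Drug. Drug lay wholly below both groups, 1.81-fold below FM (log2 fold change -0.86, SE 0.21, adjusted p = 0.053), which passed in 8 of 21 alternative settings, among them without FM replicate 3 (adjusted p = 0.0478) and without SBM replicate 1 (adjusted p = 0.0342). The relative eif4a3, a core protein of the exon junction complex, lay wholly lower in Drug than in SBM only (log2 fold change -0.31, SE 0.14, adjusted p = 0.381). The helicase cofactors eif4ba and eif4h were also wholly lower in Drug than in SBM, by log2 fold changes of -0.44 and -0.20, and overlapped FM. Among the 4 eIF4G genes only eif4g2b lay wholly below both groups, at 54.04, 49.8 and 57.7 CPM in Drug against 86.2, 80.9 and 70.8 CPM in FM and 92.95, 64.8 and 60.3 CPM in SBM. Its copy eif4g2a, of the eIF4G relative that lacks the eIF4E site, was at 424, 211 and 164 CPM in FM, 723, 202 and 274 CPM in SBM and 226, 232 and 179 CPM in Drug, with overlap throughout. The scaffold gene eif4g1a likewise ranged from 139 to 462 CPM within SBM, and its log2 fold changes lay between -0.12 and 0.09.

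Subunits of eIF2 and of its exchange factor did not share a direction. The alpha subunit gene eif2s1b, whose product is the target of the eIF2 kinases, was at 215, 221 and 221 CPM in FM, 260.0, 209.6 and 206 CPM in SBM and 155, 169 and 166 CPM in Drug. It lay wholly lower in Drug than in both groups (log2 fold change -0.46, SE 0.14, adjusted p = 0.24 against SBM; adjusted p = 0.121 against FM), and DESeq2 called both (adjusted p = 0.0435 and 0.0329). The gamma subunit gene eif2s3 lay wholly lower in Drug than in SBM (log2 fold change -0.45, SE 0.15, adjusted p = 0.266), whereas the beta subunit gene eif2s2 had a log2 fold change of 0.0026 there (SE 0.26). The gene eif2a, which encodes an initiation factor outside the eIF2 complex, was at 43.01, 42.3 and 38.95 CPM in FM and 54.9, 57.4 and 51.7 CPM in SBM, without overlap (log2 fold change 0.40, SE 0.13, adjusted p = 0.158 by edgeR and 0.0438 by DESeq2), and at 40.4, 46.1 and 49.7 CPM in Drug. The gene eif2d, which encodes a factor of tRNA delivery and ribosome recycling, was wholly higher in Drug, at 17.5, 15.6 and 20.3 CPM against 15.3, 13.03 and 13.2 CPM in FM and 13.7, 12.1 and 14.2 CPM in SBM (adjusted p = 0.32 against SBM).

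For eIF2B, 4 of its 5 subunit genes, eif2b1, eif2b2, eif2b4 and eif2b5, lay wholly higher in Drug than in FM (16.6% of all genes), with log2 fold changes from 0.19 to 0.33, and the smallest adjusted p was 0.23. With total counts in place of TMM factors the number was also 4 (14.1% of all). With TMM factors no eIF2B gene was apart between SBM and the other groups, while with total counts 1 lay wholly higher in Drug than in SBM (15.5% of all). Of the 4 eIF2 kinases, eif2ak4, which senses uncharged tRNA, was at 24.8, 30.3 and 31.7 CPM in FM, 21.8, 19.2 and 20.8 CPM in SBM and 24.3, 25.9 and 29.5 CPM in Drug. SBM lay wholly below both other groups, and neither SBM vs FM (log2 fold change -0.49, SE 0.15, adjusted p = 0.127) nor Drug vs SBM (log2 fold change 0.37, SE 0.15, adjusted p = 0.339) passed by edgeR, while DESeq2 called SBM vs FM (adjusted p = 0.0394). The heme-regulated kinase eif2ak1 ranged only from 10.5 to 13.4 CPM over the 9 libraries. The kinase genes eif2ak2, which responds to double-stranded RNA, and eif2ak3, which responds to stress of the endoplasmic reticulum, overlapped in all comparisons, with adjusted p of at least 0.372 and 0.414. SBM replicate 1 was the lowest library for both, at 11.99 and 19.6 CPM.

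Among the factors of subunit joining and of elongation, the abundant eif5a, eef1b2 and eef1g had lower values in Drug than in SBM. The gene eif5a was at 1122, 1096 and 1189 CPM in FM, 1565, 1469 and 1432 CPM in SBM and 1059, 1154 and 989 CPM in Drug. SBM lay wholly above both groups, with log2 fold change 0.39, SE 0.11, adjusted p = 0.123 against FM and log2 fold change -0.48, SE 0.11, adjusted p = 0.179 for Drug vs SBM by edgeR, both of which DESeq2 called (adjusted p = 0.0163 and 0.00502). The gene eif5, whose product makes eIF2 hydrolyse its GTP, was at 130.3, 90.5 and 123 CPM in FM and lay wholly higher in SBM, at 197, 157 and 139 CPM, and in Drug, at 159, 137 and 161 CPM (adjusted p = 0.186 and 0.243). The start site factor gene eif1axb was at 305, 241 and 282 CPM in FM, 333, 251 and 271 CPM in SBM and 314, 275 and 306 CPM in Drug, with overlap throughout, although it was among the 15 most abundant. Its low relative eif1ad was wholly lower in SBM than in both groups, at 8.30, 4.71 and 6.76 CPM against 12.1, 8.41 and 10.6 CPM in FM. The genes eif5a2, eif5b and eif6 had overlapping groups and log2 fold changes between -0.22 and 0.17.

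The eEF1 exchange factor subunits eef1b2 and eef1g lay wholly lower in Drug than in SBM, as did the scarce eef1a1a. It is the only gene of eEF1A, the carrier of aminoacyl-tRNA, among the genes described here. The values of eef1b2 were 905, 991 and 1179 CPM in FM, 1067, 1129 and 1069.7 CPM in SBM and 740.3, 928 and 807 CPM in Drug (log2 fold change -0.40, SE 0.14, adjusted p = 0.299). For eef1g they were 1485, 1525 and 1778 CPM in FM, 1737, 1874 and 1823 CPM in SBM and 1428, 1635 and 1498 CPM in Drug (log2 fold change -0.25, SE 0.12, adjusted p = 0.403). In both the Drug libraries overlapped FM. The delta subunit copies eef1da and eef1db overlapped in every comparison, and FM replicate 3, at 228 CPM of eef1da, was far above FM replicates 1 and 2 at 92.5 and 112 CPM. The methyltransferase genes eef1akmt1, eef1akmt2 and eef2kmt and eef1e1, which encodes a scaffold protein of tRNA synthetases, all had positive log2 fold changes in Drug vs SBM, from 0.22 to 0.98, and 1 of the 4, eef2kmt, lay wholly higher (9.2% of all genes). They were all negative in SBM vs FM, from -0.55 to -0.23. None of the 4 passed by edgeR (smallest adjusted p 0.335 and 0.346) or DESeq2, and at an unadjusted edgeR p under 0.05 there were 2 higher in Drug vs SBM (5.15% of all) and 0 lower in SBM vs FM (9.67% of all).

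**Figure D5:**
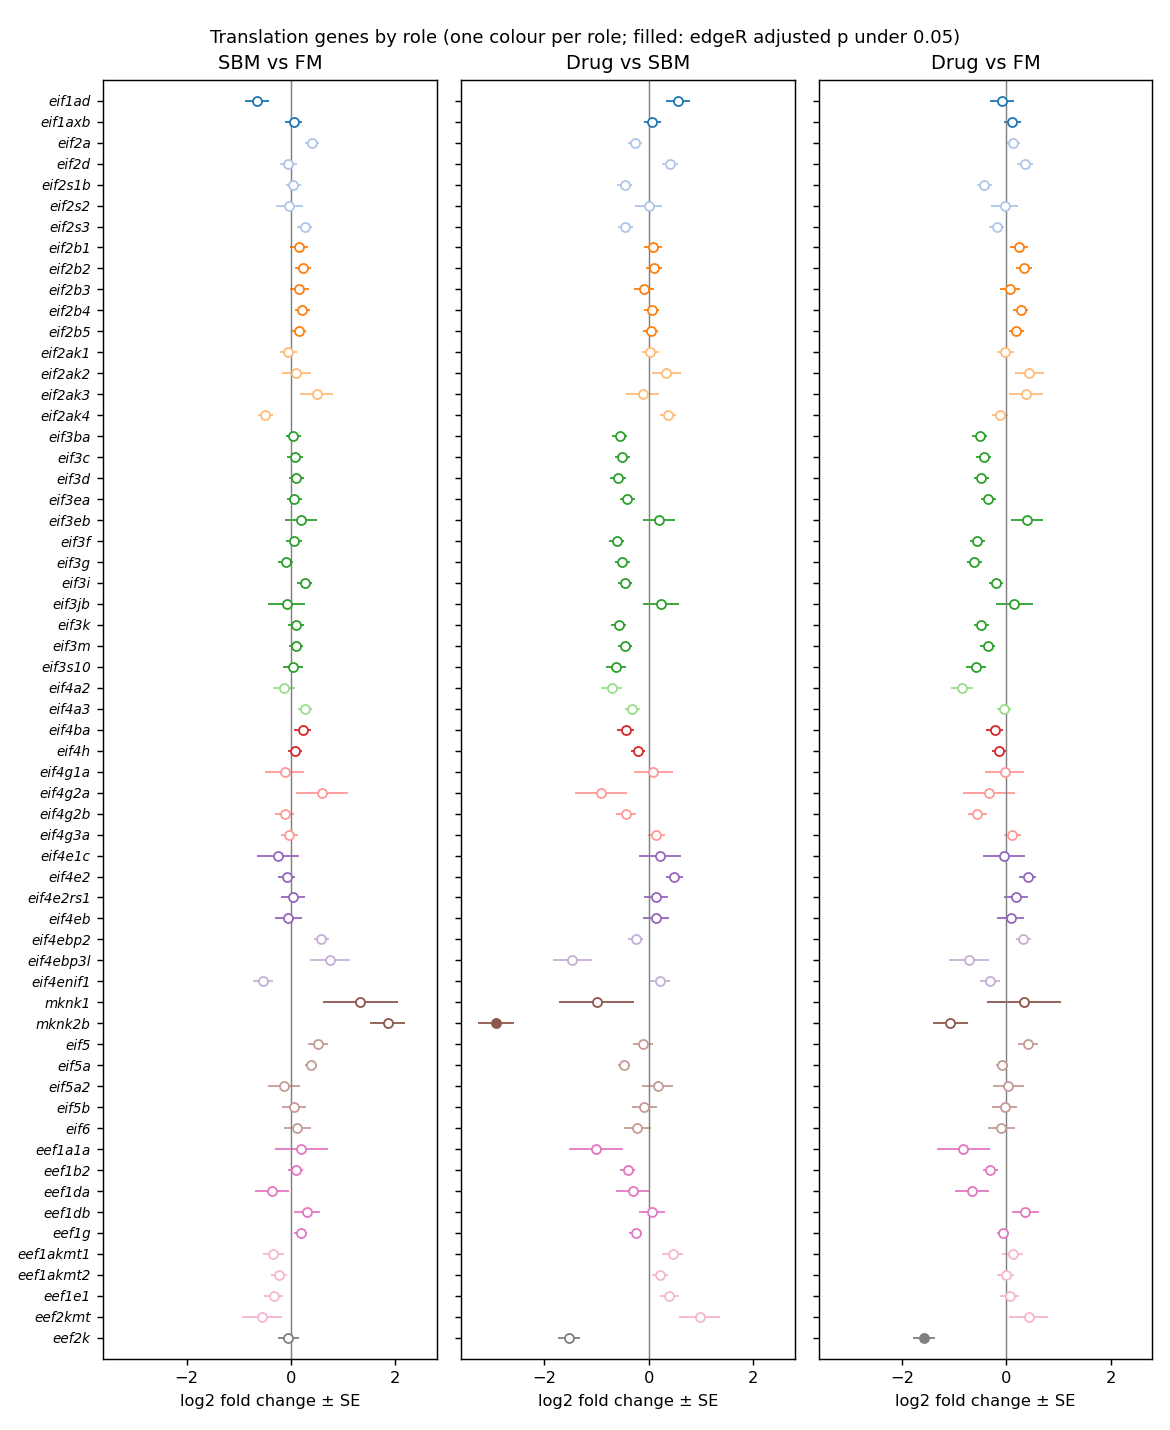
Log2 fold change ± SE of the 60 translation genes in SBM vs FM, Drug vs SBM and Drug vs FM, one colour per role and filled where the edgeR adjusted p is under 0.05. Only mknk2b in Drug vs SBM (-2.92) and eef2k in Drug vs FM (-1.57) are filled, and 10 of 12 eIF3 genes lie left of 0 in both Drug comparisons.

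Other genes around translation were read from 6 lists, of cap partners, termination and recycling, MAP kinases upstream of the eIF4E kinases, targets of the integrated stress response, inputs of the TOR kinase and tRNA synthetases. Over 87 tested genes, 1 passed in any of the 3 comparisons, lower in Drug vs FM (1.52% of all called lower there). This was aimp2, a scaffold of the synthetase complex, at 176, 219.6 and 206 CPM in FM, 184, 207 and 165 CPM in SBM and 106, 139.7 and 120.0 CPM in Drug, which fell in Drug vs FM (log2 fold change -0.72, SE 0.17, adjusted p = 0.0478). Of the 18 synthetase genes 15 had a negative log2 fold change in Drug vs SBM, against 50.7% of all genes, with a median of -0.17 against -0.01 over all, and 5 lay wholly lower, against 10.7% of all. In the stress response list 13 of 16 were negative there, with a median of -0.43, 5 wholly lower and 2 wholly higher (9.2% of all). In the TOR list 10 of 14 were negative, with a median of -0.24, 4 wholly lower and 0 wholly higher. The cap partner and termination lists had medians of 0.05 and 0.01. In SBM vs FM the stress response and TOR medians were 0.26 and 0.25.

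The 3 genes of these lists that differed most in Drug vs SBM by p were ddit4, ppp1r15b and dusp1, all lower in Drug. Each had its highest mean in SBM, as mknk2b did, but choosing genes by this comparison favours such a likeness. The TOR inhibitor gene ddit4 was at 96.9, 231 and 151 CPM in FM, 239.6, 474 and 432 CPM in SBM and 20.2, 66.8 and 46.9 CPM in Drug (log2 fold change in Drug vs SBM -3.10, SE 0.50, adjusted p = 0.0940). The gene ppp1r15b, which encodes a partner of the phosphatase that reverses eIF2 phosphorylation, was at 99.9, 114 and 85.9 CPM in FM, 427, 194 and 213 CPM in SBM and 53.7, 79.2 and 68.5 CPM in Drug (log2 fold change -2.05, SE 0.31, adjusted p = 0.0940). In all 3 comparisons its groups did not overlap. The MAP kinase phosphatase gene dusp1 was at 135, 225 and 127 CPM in FM, 593, 223 and 302 CPM in SBM and 82.3, 146 and 96.9 CPM in Drug (log2 fold change -1.78, SE 0.40, adjusted p = 0.174). The MAP kinase list also holds kinases upstream of the MAP kinases and phosphatases such as dusp1. Of its 15 tested genes, 2 lay wholly lower in Drug than in SBM, a share near the 10.7% of all genes. The median log2 fold change of the 15 was -0.09.

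Sums of some cell type markers also differed between Drug and FM, SBM or both. The absorptive enterocyte list, of which 4 of 10 genes were in the table, summed to 5874 to 7591 CPM in Drug, 456 to 1115 CPM in FM and 996 to 3843 CPM in SBM. The fatty acid binding protein fabp2 and the sucrase si carried this sum, and the defining markers apoba and alpi.1 were at or near 0 outside FM replicate 3, where apoba was at 59.8 CPM. Proliferation genes, 14 of 15 in the table, summed to 371 to 566 CPM in Drug, 115 to 163 CPM in FM and 212 to 300 CPM in SBM. Lysosome-rich enterocyte genes, 8 of 10 in the table, summed to 5600 to 7163 CPM in Drug and 10065 to 11923 CPM in FM. In SBM they summed to 5040 to 15709 CPM, which Drug overlapped. The gene lgmn was the highest of the 8 in every library, while ctsba and ctsla overlapped between Drug and FM. Goblet cell genes, 2 of 7 in the table, summed to 156 to 206 CPM in Drug and 84.1 to 145 CPM in the other libraries. The 5 epithelial genes of the tissue check summed to 1733 to 2194 CPM in Drug, wholly below SBM at 2722 to 3454 CPM, and to 1964 to 2920 CPM in FM. Pancreatic acinar genes, 3 of 17 in the table, were highest in SBM replicate 1, at 1544 CPM against 109 to 1117 CPM in the other libraries. The part of these differences in the SBM replicate 1 values and in the lower eIF3, eef2k and mknk2b values in Drug was not tested. A fit without FM replicate 3 and SBM replicate 2 gave mknk2b a log2 fold change of -2.96 in Drug vs SBM (edgeR adjusted p = 0.116). That fit keeps SBM replicate 1 and the marker differences between Drug and SBM, and so does not test the part of either.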

How the data were processed

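Per the labels' protocols, RNA was isolated from intestine with TRIzol, and the VAHTS Universal V6 kit was used for the libraries. Tools listed in the submitters' processing notes are HTSeq, HISAT2, fastp, R 3.2.0 and DESeq2, with no step given for each. The notes also list the mouse build mm10, while the symbols are those of fish, so the alignment genome is unclear and not given in the sources used here. A hybrid's reads come from both parent species, and genes that differ from the reference can be undercounted. Whether counting used strand is also not given. The authors deposited whole-number counts per gene, not normalized, for 9 libraries, and the 9 single-library tables were identical to the series table. They also deposited FPKM values, which were used for levels between genes and for 2 alternative fits on log2(FPKM + 1) and log2(FPKM + 0.1).

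The quasi-likelihood F test of edgeR 4.0.16 (R 4.3.3) was run on the counts with the default expression filter, TMM factors and a robust fit. All 9 libraries entered 1 model with 3 groups, leaving 6 residual degrees of freedom. Two-sided p-values were adjusted by Benjamini-Hochberg over all 17731 tested genes, with a threshold of 0.05. Each SE is |log2 fold change| divided by the root of F. CPM is TMM-scaled over the tested genes. For marker genes and their sums it is instead scaled by the total of all genes, with the same TMM factors. The ratio of mknk2b to mknk1 used a pseudocount of 0.5 CPM. Alternatives used DESeq2 1.42.0, limma 3.58.1, other scalings and filters and each library left out. The test was checked on simulated data.

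The members, the lists of other genes and the rules were chosen with earlier results of these data known. Named genes are those past the threshold, all kinases and eIF4E-related genes, the 5 smallest p of each comparison, the 2 most abundant of each role, and up to 3 genes by p from each other list; genes whose groups did not overlap are named as well, chosen after their values were seen. Libraries of a group differed far beyond sampling noise (chi-square per df of at least 56.1), so none was a copy of another. Same-numbered FM and SBM libraries deviated from their group means together, with correlations of 0.204, 0.290 and 0.150. Whether the numbers pair the libraries is not stated, and the main fit and the permutation tests treated them as unpaired. With the replicate number as a block, SBM vs FM also gave 0 translation genes past the threshold. No sequences are shown, since no reference was used here.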

Additional observations from a re-analysis of the deposited data

How the results depend on the processing

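Against the counts of translation genes past the threshold given above (0 in SBM vs FM, 1 in Drug vs SBM, 1 in Drug vs FM), DESeq2 gave 5, 13 and 10. In SBM vs FM a stricter filter (at least 5 CPM in 3 libraries) and the removal of 264 library-restricted genes each gave 1, and leaving out 1 library gave 0 to 1. In Drug vs SBM, total count scaling, the non-robust fit, the 2 groups alone, the fit without FM replicate 3 and SBM replicate 2, and log2(FPKM + 0.1) each gave 0, and leaving out 1 library gave 0 to 2. In Drug vs FM, total count scaling gave 2, the stricter filter 3, the 2 groups alone 4, the fit without FM replicate 3 and SBM replicate 2 gave 2, the removal of library-restricted genes 3 and both FPKM fits 2. Leaving out 1 library gave 0 to 6 there, and 0 to 3 against the mean of FM and SBM, an alternative chosen after seeing the data. Where a library was left out, its group was assumed to vary like the others.

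With the replicate number as a block, Drug vs SBM gave 0 and mknk2b was at -3.00 (adjusted p = 0.0681), and Drug vs FM gave 4. The correlations of same-numbered libraries were 0.0269, 0.178 and 0.282 for SBM with Drug and 0.113, 0.114 and 0.0391 for FM with Drug. Those of SBM with Drug overlapped those of FM with SBM, and each of the 9 libraries correlated best with its own number. All of these correlations were positive, but whether the numbers pair the libraries is not stated, and the main fit treated them as unpaired. In SBM vs FM the block changed no call among the translation genes. Over all tested genes it called 210 higher and 85 lower there, against 79 and 26 without it. In Drug vs FM the block called 769 higher and 524 lower, against 507 and 270. In Drug vs SBM it called 0 higher and 1 lower, against 0 and 7.

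The median log2 fold change of the 60 turned in sign in each comparison. In SBM vs FM it was -0.114 with total count scaling and -0.108 and -0.112 on log2(FPKM + 1) and log2(FPKM + 0.1), in Drug vs SBM 0.0498 without SBM replicate 1 and in Drug vs FM 0.0443 without FM replicate 1; with 1 library left out the ranges were -0.23 to 0.0498 and -0.115 to 0.0443 in the last 2. Total count scaling turned the eIF3 genes in SBM vs FM from 2 negative to 11 negative. Among the genes followed singly (kinases, eIF4E-binding proteins, those of smallest p and, in the Drug comparisons, eIF3), 4 turned in sign, none past the threshold. For eef2k in SBM vs FM the log2 fold change was -0.154 to 0.0587 with 1 library left out, positive without FM replicate 3 (0.0587) and without SBM replicate 1 (0.0137), and 0.00447 without FM replicate 3 and SBM replicate 2. In Drug vs SBM, mknk1 was at -1.37 to 0.209 with 1 library left out, positive without SBM replicate 1, eif3eb at -0.0176 to 0.658, negative without SBM replicate 2, and at -0.0313 without FM replicate 3 and SBM replicate 2, and eif3jb at -0.00121 in that last fit. In Drug vs FM, eif3g also passed in edgeR with total count scaling (adjusted p = 0.0438), the stricter filter (0.0397), the 2 groups alone (0.0435), without library-restricted genes (0.0483) and with the replicate block (0.0490), where eif3f was at 0.04999. Each of the 60 genes had counts in all 9 libraries.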
